A study of Mus musculus with 26 samples.

Results

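The genes described here are 35 direct transcriptional targets of p53, followed in a mouse colon adenocarcinoma line and in mouse T cells treated with inhibitors of the arginine methyltransferase PRMT5. They were chosen by name, as a list of direct p53 targets, from 56562 gene identifiers in the deposited count tables. The choice was made with earlier results of these data known, so it was not independent of them. All 35 were matched to an identifier in the MC38 and in the T cell table. The authors' shorter normalized tables list 34 of them by name for MC38 cells, with Perp missing, and 33 for T cells, with Gdf15 and Eda2r missing. After the filter on low counts 33 were tested in MC38 cells, without Perp and Ptp4a3, and 33 in T cells, without Eda2r and Gdf15.

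The data are 26 libraries of poly(A)-selected RNA. The cells treated in the tumour arm were MC38/gp100, a colon adenocarcinoma line made to carry the gp100 antigen, either with Mtap knocked out (KO) or wild type for Mtap (WT). The KO line was given MRTX1719 (n = 3), GSK3326595 (n = 3) or DMSO, the vehicle (n = 3), and the WT line MRTX1719 (n = 2, replicates 1 and 3), GSK3326595 (n = 3) or DMSO (n = 3), each inhibitor at 0.5 µM for 5 days. T cells of the pmel-1 transgenic mouse, whose T cell receptor recognises gp100, were given MRTX1719, GSK3326595 or DMSO (n = 3 each) at the same 0.5 µM for 3 days in medium with IL-2. GSK3326595 is a PRMT5 inhibitor whose binding does not depend on MTA. MRTX1719 binds PRMT5 together with methylthioadenosine (MTA), the metabolite that the MTAP enzyme clears. Some treatment entries in the labels end the name GSK3326595 in another digit, while the titles do not, and these libraries were taken as 1 compound. The labels do not say whether the KO line is a single clone, whether replicates were separate cultures or animals, or what the Trp53 genotype of the line is.

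The protein p53 is a transcription factor that is kept low by the ubiquitin ligase MDM2 and its partner MDM4, and that accumulates when DNA damage, nucleolar stress or oncogene activity interrupts that control. It binds as a tetramer to a response element of paired half-sites and raises the transcription of genes for cell cycle arrest, apoptosis, DNA repair and metabolism. The best-known target is Cdkn1a, which encodes the cyclin-dependent kinase inhibitor p21. Through p21 and the DREAM repressor complex, p53 also lowers genes of mitosis. RNA of these targets is widely used as a readout of p53, although most of them also answer to other transcription factors, and RNA counts show neither p53 protein nor its binding.

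By known role the list holds 12 genes of cell cycle and growth arrest, 13 of apoptosis and death receptors, 6 of DNA repair and nucleotide supply, and 4 of metabolism and stress. RefSeq promoter windows of the GRCm38.p6 build, from 250 bases before to 50 after a gene start, were found for 23 of the 35, in 30 windows. They were searched on both strands for the p53 half-site, a motif that reads the same on either strand. An exact half-site stood in the windows of 9 of the 23 members (39.1%), against 9.55% of all 27025 genes with a window: Cdkn1a, Bax, Ccng1, Sesn1, Ckap2, Aen, Ei24, Gadd45a and Polk. A full site, meaning a pair of half-sites with exact cores, at most 2 mismatches in all and a spacer of at most 13 bases, stood in the windows of 5 members (21.7%), against 2.47% of all genes. Matches of this kind describe letters and are not bound sites. These 5 windows hold 8 such pairs in all, 2 each in Cdkn1a, Bax and Ckap2, where the pairs share a half-site. The closest pair of each gene is shown because paired half-sites are the kind of sequence p53 is known to bind, with half-sites in capitals and spacers in lower case.
Cdkn1a (window chr17:29090729-29091028, + strand): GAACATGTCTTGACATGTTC
Bax (window chr7:45466849-45467148, - strand): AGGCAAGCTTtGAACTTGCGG
Ckap2 (window chr8:22185770-22186069, - strand): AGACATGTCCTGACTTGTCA
Sesn1 (window chr10:41887189-41887488, + strand): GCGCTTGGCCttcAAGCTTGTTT
Trim32 (window chr4:65604736-65605035, + strand): CAGCATGCCTcgggaggcgGGGCAAGTTG

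The closest Cdkn1a pair had 1 mismatch and no spacer. The other Cdkn1a pair, seen in the window printed next, had 0 mismatches and a spacer of 12 bases. All pairs of the other 4 genes had 2 mismatches. The whole windows of Cdkn1a and Btg2 follow, since these 2 cell cycle inhibitor genes were the members that most separated the KO from the WT line among those with ample counts. In capitals are the half-sites that are exact or take part in a full site, of which the Btg2 window (chr1:134079106-134079405, - strand) holds none. A second annotated Cdkn1a window, chr17:29093519-29093818, belongs to a gene start further downstream on the + strand. It holds none either, nor do those of Eda2r, Gdf15, Fas, Plk2 and Plk3. That says only that these letters are not in these windows.
Cdkn1a: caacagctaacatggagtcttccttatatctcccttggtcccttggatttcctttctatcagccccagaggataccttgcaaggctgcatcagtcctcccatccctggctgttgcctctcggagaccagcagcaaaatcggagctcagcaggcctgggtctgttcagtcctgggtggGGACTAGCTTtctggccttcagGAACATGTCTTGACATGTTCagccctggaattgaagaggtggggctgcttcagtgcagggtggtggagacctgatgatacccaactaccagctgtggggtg
Btg2: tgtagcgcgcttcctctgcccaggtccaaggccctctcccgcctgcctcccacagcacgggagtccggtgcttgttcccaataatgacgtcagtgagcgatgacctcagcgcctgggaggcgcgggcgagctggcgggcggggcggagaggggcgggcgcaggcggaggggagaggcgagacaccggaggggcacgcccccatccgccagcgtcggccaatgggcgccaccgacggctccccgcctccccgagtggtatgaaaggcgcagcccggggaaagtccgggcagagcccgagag

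Depth and identity of the samples were checked as follows. Each MC38 library held between 19302768 and 27786226 counts, and each T cell library between 13813406 and 20772699. Levels are given as CPM, edgeR's count per unit of sequencing depth on TMM-scaled library totals, and differences as log2 fold changes with their standard error (SE) from edgeR's quasi-likelihood test, with p adjusted by Benjamini-Hochberg over the 14835 genes tested for MC38 and the 13753 tested for T cells, and a threshold of 0.05. Mtap, the targeted gene, stood at 264 to 276 CPM in KO cells with DMSO, against 388 to 397 CPM in WT cells with DMSO (log2 fold change -0.53 ± 0.0222, SE), so the whole-gene count fell without being lost. It was 236 to 251 and 203 to 206 CPM in KO cells with GSK3326595 and MRTX1719. The part of Mtap that was edited is not given in the labels, and a whole-gene count can hold RNA that an edit leaves in place. The 6 T cell markers summed to 3326 to 3395 CPM with MRTX1719, 3797 to 3846 CPM with GSK3326595 and 3067 to 3073 CPM with DMSO, and lineage markers of B cells and of myeloid cells summed to at most 0.92 and 0.562 CPM in any T cell library. The 2 CD4 T cell markers summed to 1.09 to 1.46 CPM with MRTX1719, 1.55 to 1.85 CPM with GSK3326595 and 0.9503 to 1.42 CPM with DMSO. In MC38 cells the epithelial markers Epcam and Cdx2 were at or near 0, whereas the keratin gene Krt8 was detected and the collagen gene Col1a1 was abundant. The 6 epithelial markers summed to 58.7 to 60.6 CPM with MRTX1719, 59.1 to 61.9 CPM with GSK3326595 and 14.4 to 15.7 CPM with DMSO in KO cells. In WT cells the sums were 24.1 to 24.8, 38.4 to 40.2 and 22.1 to 24.7 CPM in the same order. The 4 fibroblast and endothelial markers summed to 2396 to 2439.6 CPM in KO cells with DMSO, against 975 to 979.7 CPM in WT cells with DMSO, and the part of such differences in the results below was not tested.

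**Figure D1:**
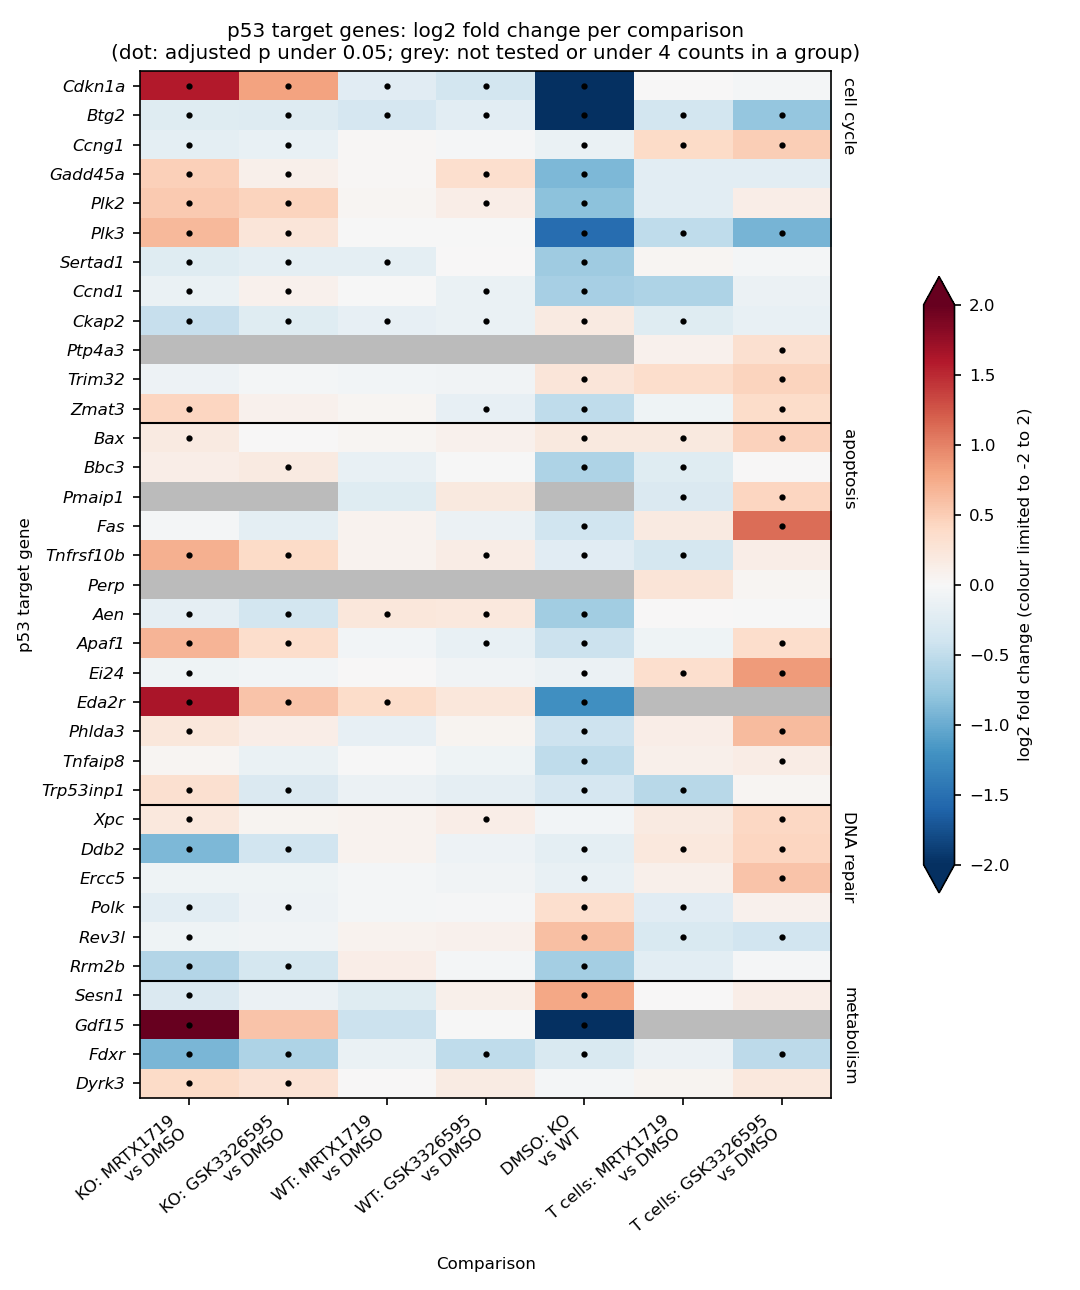
Log2 fold change of each p53 target (rows, by role) in 7 comparisons (columns), red for higher and blue for lower than the group named second, with colour limited to -2 to 2. A dot marks adjusted p under 0.05 in edgeR's quasi-likelihood test, and grey cells were not tested or rest on under 4 counts in a group. The column of KO against WT cells under DMSO is mostly blue. Of 33 targets tested there 25 were lower, against 37.0% of all genes. The 25 include Pmaip1, which is grey in that column because of its low counts. The MRTX1719 column of KO cells is split, with 14 higher and 13 lower, against 37.0% higher and 33.6% lower among all genes.

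With no inhibitor, p53 targets were mostly lower in the KO line than in the WT line. Of the 33 tested, 25 were lower, 6 were higher and 2 (Xpc and Dyrk3) did not pass, with a median log2 fold change of -0.42. Among all genes tested 37.0% were lower and 36.2% higher, with a median of 0.01. The cell cycle genes were lower at 9 and higher at 2 of 11, the apoptosis genes lower at 11 and higher at 1 of 12, the DNA repair genes lower at 3 and higher at 2 of 6, and the metabolism genes lower at 2 and higher at 1 of 4. In bulk RNA, fewer cells of a kind and less RNA per cell cannot be told apart, and with 1 line of each genotype the knockout and other differences between the lines cannot be told apart either.

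Btg2, an antiproliferative gene, stood at 8.32, 7.08 and 6.999 CPM in the KO libraries with DMSO, against 87.9, 90.8 and 93.0 CPM in the WT libraries. Every KO library lay far below every WT library, a log2 fold change of -3.61 ± 0.0554 (SE, edgeR adjusted p = 4.67e-102). Cdkn1a was at 10.4, 10.3 and 9.77 CPM in KO cells, against 54.1, 52.3 and 51.0 CPM in WT cells, also without overlap, with a log2 fold change of -2.37 ± 0.0573 (SE, edgeR adjusted p = 3.78e-77). The polo-like kinase gene Plk3 had 14.7, 12.9 and 14.7 CPM in KO cells, against 40.4, 42.7 and 38.0 CPM in WT cells (log2 fold change -1.53 ± 0.0592, SE). Its relative Plk2 and the damage-response gene Gadd45a were lower too, with log2 fold changes of -0.82 ± 0.0202 and -0.90 ± 0.0319 (SE). Ccng1, the gene of cyclin G1 and a classical p53 target, differed least among the lower cell cycle genes, at 101, 94.4 and 96.7 CPM in KO cells, against 105, 104 and 108 CPM in WT cells (log2 fold change -0.13 ± 0.0318, SE, edgeR adjusted p = 0.000166). Its KO libraries still lay below all WT libraries.

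Among death genes, Pmaip1, which encodes the BH3-only protein NOXA, had 1 count over the 3 KO libraries with DMSO, against 41 counts over the 3 WT libraries. That is a ratio of 0.0261 with a 95% counting interval of 0.000645 to 0.154, and intervals of this kind cover counting error only. Eda2r, a TNF receptor family gene, was at 3.64, 2.95 and 3.06 CPM in KO cells, against 6.84, 7.80 and 7.78 CPM in WT cells (log2 fold change -1.23 ± 0.122, SE, edgeR adjusted p = 1.61e-17). Bbc3, the gene of the BH3-only protein PUMA, was lower, with a log2 fold change of -0.62 ± 0.0613 (SE), as were the nuclease gene Aen (-0.69 ± 0.0566), the apoptosome gene Apaf1 (-0.43 ± 0.0414), the death receptor gene Fas (-0.39 ± 0.102) and Tnfaip8 (-0.50 ± 0.0692). Bax, the gene of the mitochondrial pore protein, went against its group: it had 20.02, 20.1 and 19.2 CPM in KO cells, against 17.3, 17.2 and 17.6 CPM in WT cells, a log2 fold change of 0.19 ± 0.0639 (SE, edgeR adjusted p = 0.00597). Exons of Bax overlap those of Gm45808 on the same strand in the GENCODE M21 annotation, over 12.2% of the exonic bases of Bax. Reads of the 2 genes cannot be told apart in that shared part.

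The other higher members were Sesn1, Rev3l, Polk, Trim32 and Ckap2. Sesn1, a sestrin gene of stress metabolism, had 18.7, 16.1 and 17.9 CPM in KO cells, against 10.4, 9.51 and 10.7 CPM in WT cells (log2 fold change 0.78 ± 0.0751, SE, edgeR adjusted p = 2.28e-18). Rev3l and Polk encode polymerases that copy past DNA lesions. Rev3l was at 59.0, 59.9 and 58.8 CPM in KO cells, against 39.4, 37.9 and 39.6 CPM in WT cells (log2 fold change 0.60 ± 0.0413, SE, edgeR adjusted p = 6.06e-29), and Polk at 55.3, 53.6 and 52.7 CPM in KO cells, against 42.5, 42.2 and 42.6 CPM in WT cells (log2 fold change 0.34 ± 0.0411, SE). All KO libraries lay above all WT libraries for these 3 genes, as they did for the ubiquitin ligase gene Trim32, at 35.1, 33.0 and 36.4 CPM in KO cells, against 31.0, 28.3 and 29.3 CPM in WT cells (log2 fold change 0.24 ± 0.04996, SE). Rrm2b, which encodes the p53-inducible subunit of ribonucleotide reductase, was lower, with a log2 fold change of -0.68 ± 0.0487 (SE). Gdf15, the gene of a stress cytokine, had 9 counts over the KO libraries with DMSO, against 69 over the WT libraries, a ratio of 0.139 with a 95% counting interval of 0.0612 to 0.28.

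Immediate early genes, which answer within minutes to growth factors, stress and handling, moved in the same comparison. All 15 were lower in KO cells, against 37.0% of all genes, with a median log2 fold change of -2.08. They summed to 1172 to 1203 CPM in KO cells, against 3798 to 3909 CPM in WT cells. Btg2, Plk2, Plk3 and Gadd45a are known to respond to some of the same signals. The part of that difference in the p53 targets was not tested.

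**Figure D2:**
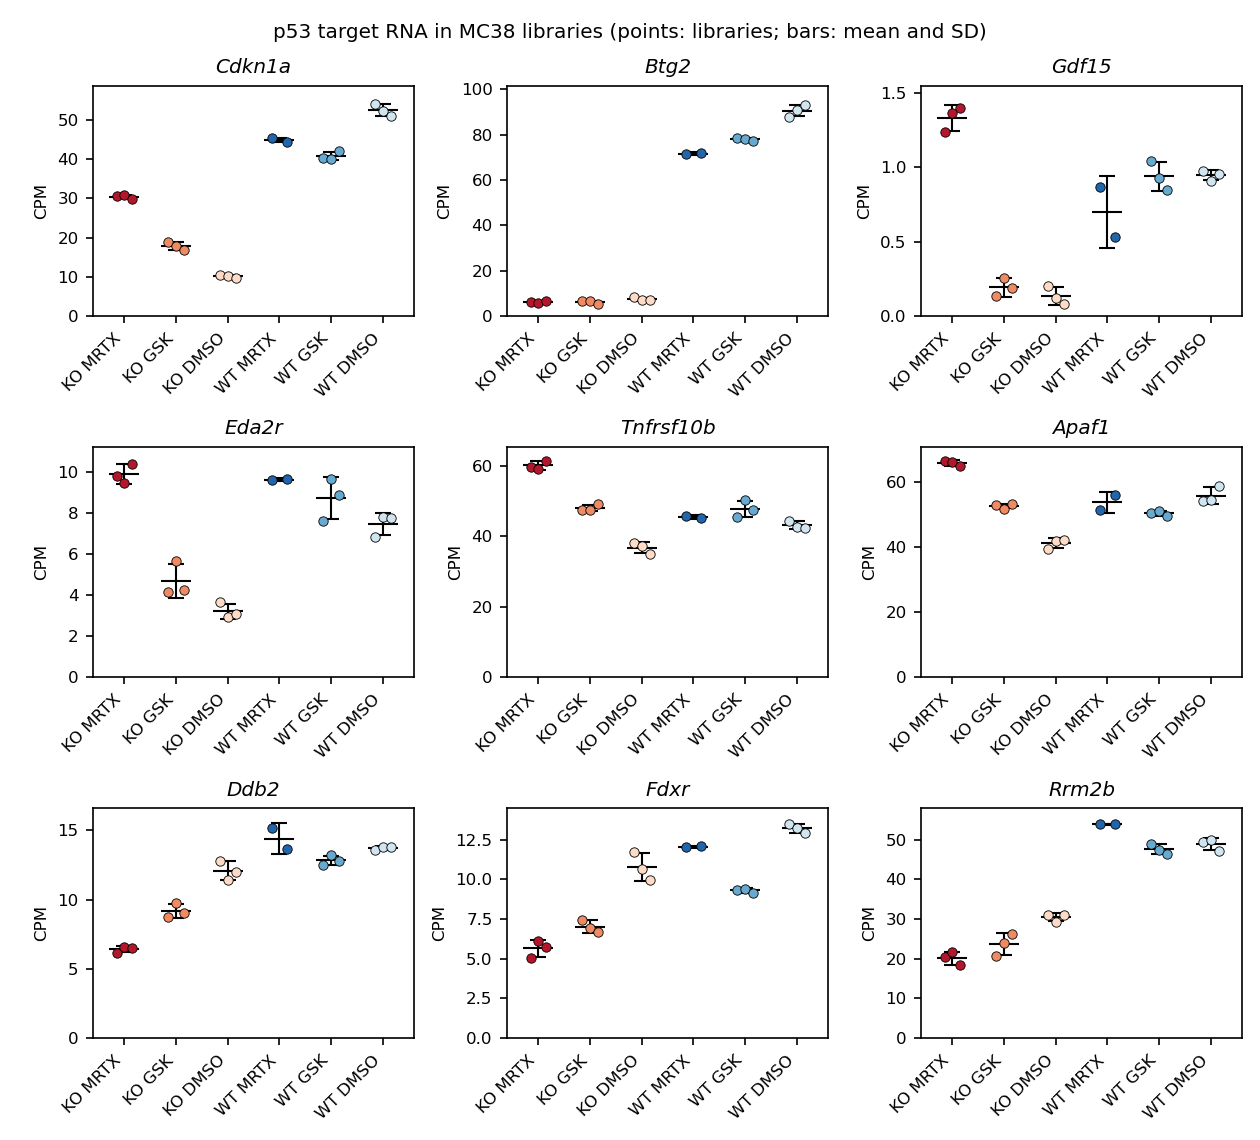
CPM of 9 p53 targets in the 17 MC38 libraries. Each point is a library and bars give the mean and SD of a group (n = 3, and n = 2 for WT cells with MRTX1719), with MRTX for MRTX1719 and GSK for GSK3326595 on the axes. Cdkn1a, Gdf15, Eda2r, Tnfrsf10b and Apaf1 are higher in KO cells with MRTX1719 than in KO cells with DMSO, whereas Ddb2, Fdxr and Rrm2b are lower, and Btg2 is low in every KO group.

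In KO cells MRTX1719 raised and lowered about equally many p53 targets. Of 33 tested, 14 were higher, 13 lower and 6 did not pass, with a median log2 fold change of 0.03. Among all genes 37.0% were higher and 33.6% lower, with a median of 0.02. The KO DMSO libraries are shared with the comparison between the lines. Apoptosis genes were higher at 6 and lower at 2 of 12, and DNA repair genes lower at 4 and higher at 1 of 6. Cell cycle genes were higher at 5 and lower at 5 of 11, and metabolism genes higher at 2 and lower at 2 of 4.

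Cdkn1a stood at 30.6, 30.8 and 29.9 CPM in KO cells with MRTX1719, against 10.4, 10.3 and 9.77 CPM in KO cells with DMSO. The treated libraries lay well above the controls, a log2 fold change of 1.59 ± 0.0634 (SE, edgeR adjusted p = 3.83e-51), and below every WT library. Zmat3, an RNA-binding protein gene, rose by 0.43 ± 0.0560 on the log2 scale (SE), Plk3 by 0.65 ± 0.0665, Plk2 by 0.52 ± 0.0204 and Gadd45a by 0.47 ± 0.0333. Btg2 did not follow them, with 6.31, 5.85 and 6.70 CPM in treated KO cells, against 8.32, 7.08 and 6.999 CPM with DMSO (log2 fold change -0.24 ± 0.0954, SE, edgeR adjusted p = 0.0173). Its call was lost without KO DMSO replicate 1 (adjusted p = 0.131) or without MRTX1719 replicate 2 (adjusted p = 0.12). Ckap2, which encodes a protein of the mitotic spindle, fell to 54.7, 49.0 and 52.7 CPM with MRTX1719, against 69.3, 71.4 and 72.6 CPM with DMSO (log2 fold change -0.45 ± 0.0385, SE). Ccng1 was at 85.9, 83.1 and 85.9 CPM in treated KO cells, against 101, 94.4 and 96.7 CPM with DMSO (log2 fold change -0.19 ± 0.0330, SE). All treated libraries of both genes lay below the controls.

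Among the apoptosis genes the receptor genes Eda2r and Tnfrsf10b rose most. Eda2r had 9.83, 9.46 and 10.4 CPM in KO cells with MRTX1719, against 3.64, 2.95 and 3.06 CPM with DMSO, and all treated libraries were higher (log2 fold change 1.63 ± 0.116, SE, edgeR adjusted p = 3.58e-27). The TRAIL receptor gene Tnfrsf10b had 59.6, 59.0 and 61.4 CPM with MRTX1719, against 38.0, 37.1 and 35.0 CPM with DMSO (log2 fold change 0.71 ± 0.0425, SE, edgeR adjusted p = 1.12e-33). Apaf1 rose by 0.68 ± 0.0407 on the log2 scale (SE), Trp53inp1 by 0.32 ± 0.0905 and the Akt inhibitor gene Phlda3 by 0.23 ± 0.0610. Bax was at 21.4, 23.2 and 22.7 CPM with MRTX1719, against 20.02, 20.1 and 19.2 CPM with DMSO, a smaller rise (log2 fold change 0.18 ± 0.0615, SE, edgeR adjusted p = 0.00578). The BH3-only gene Bbc3 and Fas had log2 fold changes of 0.13 and -0.03 and did not pass, nor did Tnfaip8 (0.03). Pmaip1 had 7 counts with MRTX1719, against 1 with DMSO, a ratio of 6.86 with a counting interval of 0.881 to 309.

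Gdf15 had 1.23, 1.36 and 1.40 CPM in KO cells with MRTX1719, against 0.205, 0.121 and 0.0828 CPM with DMSO. The 93 counts with MRTX1719 against 9 with DMSO give a ratio of 10.1 with a counting interval of 5.11 to 22.8, and the fitted log2 fold change was 3.29 ± 0.410 (SE, edgeR adjusted p = 1.49e-12). The kinase gene Dyrk3 rose by 0.38 ± 0.110 (log2 fold change, SE). The largest falls were those of Fdxr and of the repair genes Ddb2 and Rrm2b. Ddb2, which recognises ultraviolet lesions, was at 6.17, 6.55 and 6.51 CPM with MRTX1719, against 12.8, 11.4 and 12.0 CPM with DMSO (log2 fold change -0.90 ± 0.0899, SE, edgeR adjusted p = 1.74e-17). Its exons overlap those of Acp2 on the opposite strand, over 23.8% of the exonic bases of Ddb2. The strand setting of the counting is not given, so reads of the 2 genes cannot be told apart in that shared part. Exons of Cdkn1a, Ccnd1, Ei24, Gadd45a, Plk3, Rrm2b and Tnfaip8 also overlap a gene on the opposite strand. Rrm2b fell to 20.3, 21.6 and 18.4 CPM, against 31.1, 29.2 and 31.1 CPM with DMSO (log2 fold change -0.59 ± 0.0576, SE, edgeR adjusted p = 2.25e-17). Fdxr, the gene of mitochondrial ferredoxin reductase, fell to 5.07, 6.15 and 5.74 CPM, against 11.7, 10.7 and 9.98 CPM (log2 fold change -0.92 ± 0.0957, SE, edgeR adjusted p = 2.77e-16). In all 3 genes the treated libraries lay below the controls. Only Xpc, a damage sensor gene, rose among the 6 repair genes in this comparison (log2 fold change 0.22 ± 0.0462, SE).

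GSK3326595 in KO cells also gave as many higher as lower targets. Of 33 tested, 10 were higher, 10 lower and 13 did not pass (median log2 fold change -0.04), while among all genes 27.7% were higher and 25.1% lower. The count of higher targets was 6 without GSK3326595 replicate 1. Cell cycle genes were higher at 5 and lower at 4 of 11, apoptosis genes higher at 4 and lower at 2 of 12, repair genes higher at 0 and lower at 3 of 6, and metabolism genes higher at 1 and lower at 1 of 4. Cdkn1a stood at 18.9, 17.9 and 16.7 CPM with GSK3326595, against 10.4, 10.3 and 9.77 CPM with DMSO, above all control libraries (log2 fold change 0.81 ± 0.0695, SE, edgeR adjusted p = 7.14e-21). Eda2r had 4.17, 5.65 and 4.24 CPM, against 3.64, 2.95 and 3.06 CPM with DMSO (log2 fold change 0.56 ± 0.134, SE, edgeR adjusted p = 0.00015), Plk2 had 475, 476 and 482 CPM, against 349, 355 and 348 CPM (log2 fold change 0.45 ± 0.0203, SE), and Tnfrsf10b had 47.4, 47.5 and 49.1 CPM, against 38.0, 37.1 and 35.0 CPM (log2 fold change 0.39 ± 0.0435, SE). These 3 genes also showed no overlap between treated and control libraries. At the low end were Fdxr with 7.45, 6.94 and 6.68 CPM, against 11.7, 10.7 and 9.98 CPM with DMSO (log2 fold change -0.62 ± 0.0898, SE, edgeR adjusted p = 1.55e-09), Ddb2 with 8.74, 9.73 and 9.01 CPM, against 12.8, 11.4 and 12.0 CPM (log2 fold change -0.39 ± 0.0818, SE), Rrm2b with 20.8, 24.0 and 26.2 CPM, against 31.1, 29.2 and 31.1 CPM (log2 fold change -0.36 ± 0.0548, SE), and Aen with 14.9, 15.3 and 14.6 CPM, against 18.4, 20.5 and 19.0 CPM (log2 fold change -0.37 ± 0.0645, SE). Again every treated library of these 4 genes lay below every control. They had been picked for the largest called falls, so this adds no support beyond the calls.

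Btg2 in KO cells with GSK3326595 was at 6.56, 6.57 and 5.54 CPM, against 8.32, 7.08 and 6.999 CPM with DMSO (log2 fold change -0.25 ± 0.0936, SE, edgeR adjusted p = 0.0165), a call lost without KO DMSO replicate 1 (adjusted p = 0.134) or GSK3326595 replicate 3 (adjusted p = 0.154). Ccng1 was at 83.2, 89.4 and 90.8 CPM, against 101, 94.4 and 96.7 CPM (log2 fold change -0.14 ± 0.0324, SE). Bax, at 19.3, 19.4 and 21.1 CPM with GSK3326595, against 20.02, 20.1 and 19.2 CPM with DMSO, did not pass (log2 fold change 0.01 ± 0.0619, SE, edgeR adjusted p = 0.871), and its libraries overlapped. Gdf15 had 15 counts with GSK3326595, against 9 with DMSO, a ratio of 1.5 with a counting interval of 0.615 to 3.89.

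Set directly against each other in KO cells, MRTX1719 gave higher levels than GSK3326595 at 13 targets and lower levels at 7, and 13 did not pass. Among all genes 28.3% were higher and 24.9% lower. Cdkn1a was at 29.9 to 30.8 CPM with MRTX1719, against 16.7 to 18.9 CPM with GSK3326595 (log2 fold change 0.78 ± 0.0551, SE, edgeR adjusted p = 1.08e-26). Gdf15 had 93 counts against 15, a ratio of 6.75 with a counting interval of 3.89 to 12.5. Eda2r had a log2 fold change of 1.06 ± 0.104 (SE) between the inhibitors, and Trp53inp1, at 10.5, 9.42 and 10.7 CPM with MRTX1719, against 6.88, 6.76 and 6.49 CPM with GSK3326595, of 0.60 ± 0.0921. The last gene had risen with MRTX1719 and fallen with GSK3326595 relative to DMSO. Lower with MRTX1719 were Ddb2 (log2 fold change -0.52 ± 0.0930, SE), Fdxr (-0.30 ± 0.102), Rrm2b (-0.23 ± 0.0592) and the cyclin D1 gene Ccnd1, at 465, 461 and 461 CPM, against 543, 547 and 538 CPM with GSK3326595 (-0.23 ± 0.0195). The Fdxr call was lost without MRTX1719 replicate 1 (adjusted p = 0.0785). Btg2 and Ccng1 did not pass (log2 fold changes 0.01 ± 0.0970 and -0.05 ± 0.0329, SE), though Ccng1 passed without GSK3326595 replicate 1 (adjusted p = 0.026). Bax passed at 0.17 ± 0.0602 (log2 fold change, SE), a call lost with DESeq2 (adjusted p = 0.0533), without a filter on low counts and without GSK3326595 replicate 2 or MRTX1719 replicate 2.

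In WT cells most p53 targets did not pass with either inhibitor. With MRTX1719 2 of 33 were higher, 4 lower and 27 did not pass (median log2 fold change 0.00), against 3.62% higher and 3.91% lower among all genes. Without MRTX1719 replicate 1 the counts were 0 higher and 2 lower, and without MRTX1719 replicate 3 or without DMSO replicate 1 a single gene was higher. Btg2 was at 71.3 and 72.0 CPM with MRTX1719, against 87.9, 90.8 and 93.0 CPM with DMSO, lower in both treated libraries (log2 fold change -0.34 ± 0.0398, SE, edgeR adjusted p = 2.61e-11). Immediate early genes were lower at 12 and higher at 0 of 15 in this comparison, summing to 3285 to 3328 CPM with MRTX1719, against 3798 to 3909 CPM with DMSO. Heat shock genes were lower at 4 of 5, and the part of either list in the targets' changes was not tested. Cdkn1a was lower as well, at 45.2 and 44.4 CPM with MRTX1719, against 54.1, 52.3 and 51.0 CPM with DMSO (log2 fold change -0.23 ± 0.0471, SE, edgeR adjusted p = 0.000281). Sertad1, a cyclin-dependent kinase regulator, had 31.3 and 30.0 CPM, against 36.6, 36.1 and 32.9 CPM (log2 fold change -0.20 ± 0.0553, SE), and Ckap2 had 55.4 and 56.4 CPM, against 64.2, 62.4 and 61.2 CPM (log2 fold change -0.16 ± 0.0419, SE). The 2 higher genes were Eda2r, with 9.59 and 9.69 CPM with MRTX1719, against 6.84, 7.80 and 7.78 CPM with DMSO (log2 fold change 0.37 ± 0.104, SE, edgeR adjusted p = 0.0129), and Aen, with 37.2 and 35.8 CPM, against 31.2, 32.9 and 29.7 CPM (log2 fold change 0.22 ± 0.0547, SE). The calls of Sertad1, Ckap2, Eda2r and Aen were each lost without MRTX1719 replicate 1, at adjusted p = 0.0501, 0.118, 0.102 and 0.118. Those of Sertad1 and Eda2r were also lost without MRTX1719 replicate 3 or DMSO replicate 1, and that of Sertad1 without DMSO replicate 2 and with DESeq2. Bax (log2 fold change 0.04 ± 0.0706, SE) and Ccng1 (0.02 ± 0.0343) did not pass.

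GSK3326595 in WT cells left 5 targets higher, 7 lower and 21 not passed of 33 (median log2 fold change -0.02), against 20.1% higher and 21.1% lower among all genes. Cdkn1a was at 40.3, 40.04 and 41.9 CPM with GSK3326595, against 54.1, 52.3 and 51.0 CPM with DMSO, below every control (log2 fold change -0.36 ± 0.0427, SE, edgeR adjusted p = 5.44e-13). Fdxr had 9.35, 9.39 and 9.15 CPM, against 13.5, 13.2 and 12.9 CPM (log2 fold change -0.51 ± 0.0797, SE, edgeR adjusted p = 2.78e-08), and Btg2 had 78.5, 78.0 and 77.2 CPM, against 87.9, 90.8 and 93.0 CPM (log2 fold change -0.22 ± 0.0351, SE, edgeR adjusted p = 7.13e-08), again without overlap. Immediate early genes were lower at 9 and higher at 4 of 15 there, summing to 3346 to 3404 CPM with GSK3326595, against 3798 to 3909 CPM with DMSO, and heat shock genes were lower at 4 of 5. Their part in these changes was not tested. Gadd45a was the most raised, at 168, 168 and 168 CPM, against 137, 129.6 and 132 CPM with DMSO (log2 fold change 0.33 ± 0.0282, SE, edgeR adjusted p = 5.78e-21). Aen had 35.5, 35.1 and 37.9 CPM, against 31.2, 32.9 and 29.7 CPM (log2 fold change 0.21 ± 0.0493, SE), Tnfrsf10b had 45.5, 50.2 and 47.5 CPM, against 44.4, 42.5 and 42.2 CPM (0.15 ± 0.0415), and Xpc had 43.1, 41.7 and 38.7 CPM, against 36.2, 39.3 and 36.9 CPM (0.13 ± 0.0445). Treated and control libraries overlapped for Xpc and not for Aen and Tnfrsf10b. Zmat3 fell to 28.2, 27.2 and 28.1 CPM, against 30.4, 32.5 and 30.6 CPM (log2 fold change -0.16 ± 0.0513, SE). The Xpc call was lost without DMSO replicate 1 or GSK3326595 replicate 1, and that of Zmat3 without DMSO replicate 2. Bax and Ccng1 did not pass, at log2 fold changes of 0.08 ± 0.0631 and -0.03 ± 0.0309 (SE).

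Between the inhibitors in WT cells, MRTX1719 gave higher levels at 5 targets and lower levels at 6, and 22 did not pass, against 15.4% higher and 14.6% lower among all genes. Fdxr was at 12.0 to 12.1 CPM with MRTX1719, against 9.15 to 9.39 CPM with GSK3326595 (log2 fold change 0.37 ± 0.0888, SE), and Zmat3 and Rrm2b were higher by 0.21 ± 0.0561 and 0.18 ± 0.0477 (log2 fold change, SE). Gadd45a was at 134 to 137 CPM with MRTX1719, against 168 CPM in each library with GSK3326595 (log2 fold change -0.31 ± 0.0314, SE). Sesn1 had 9.29 and 7.87 CPM with MRTX1719, against 11.0, 10.9 and 10.8 CPM with GSK3326595 (log2 fold change -0.34 ± 0.0916, SE). Phlda3 and Sertad1 were lower too, with log2 fold changes of -0.23 ± 0.0609 and -0.22 ± 0.0547. The Sesn1 call was lost without MRTX1719 replicate 3 (adjusted p = 0.148). Cdkn1a and Btg2 differed by 0.14 ± 0.0482 and -0.12 ± 0.0401 (log2 fold change, SE). Both of those calls were lost with DESeq2 (adjusted p = 0.113 and 0.118) and without either MRTX1719 replicate, and that of Cdkn1a without GSK3326595 replicate 1 or 2. Bax and Ccng1 did not pass (-0.04 ± 0.0691 and 0.05 ± 0.0341).

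**Figure D3:**
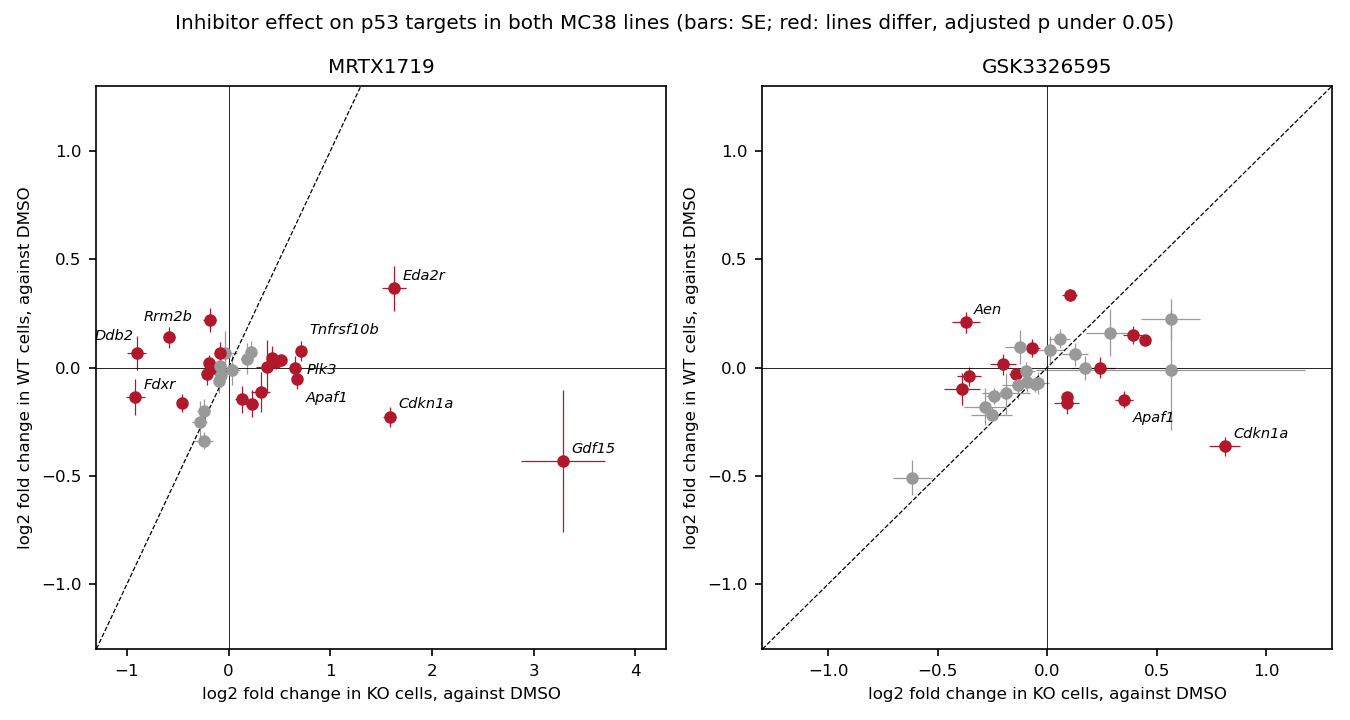
Log2 fold change against DMSO of each p53 target in KO cells (x axis) and WT cells (y axis) for MRTX1719 (left) and GSK3326595 (right). Points are genes, bars are SE, the dashed line marks equal change, and the axes of the left panel differ in scale. Red genes differed between the lines (adjusted p under 0.05 for the difference), and Pmaip1 is left out because it rests on 1 count in KO cells with DMSO. Cdkn1a lies right of 0 and below it in both panels, higher in treated KO cells and lower in treated WT cells.

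Whether an inhibitor acted unequally in the 2 lines was tested as an interaction, its KO effect minus its WT effect. For MRTX1719 it was above 0 at 13 targets, below 0 at 9 and did not pass at 11 (median 0.09), against 30.3% and 27.9% of all genes. For GSK3326595 it was above 0 at 7, below 0 at 7 and did not pass at 19 (median -0.04), against 22.0% and 20.2%. Cdkn1a rose in KO cells and fell in WT cells with either inhibitor. Its interaction was 1.81 ± 0.0795 (SE, edgeR adjusted p = 3.22e-46) for MRTX1719 and 1.17 ± 0.0815 (SE, edgeR adjusted p = 4.21e-27) for GSK3326595, in log2 units. With MRTX1719 the interaction was also positive for Gdf15 (3.72 ± 0.541, SE), Eda2r (1.26 ± 0.158), Apaf1 (0.73 ± 0.0593) and Plk3 (0.65 ± 0.0851). It was negative for Ddb2 (-0.97 ± 0.121), Fdxr (-0.78 ± 0.129), Rrm2b (-0.73 ± 0.0750) and Aen (-0.41 ± 0.0841). Of the 6 repair genes 0 were above 0 and 4 below 0 for MRTX1719.

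With GSK3326595 the positive interactions were led, after Cdkn1a, by Apaf1 (0.50 ± 0.0571, SE, log2 units), Plk2 (0.32 ± 0.0281) and Zmat3 (0.25 ± 0.0771), and the negative ones by Aen (-0.58 ± 0.0811), Rrm2b (-0.32 ± 0.0703), Ddb2 (-0.29 ± 0.110) and Gadd45a (-0.23 ± 0.0443). With DESeq2 3 targets rather than 7 were below 0 for this inhibitor, Ddb2 (adjusted p = 0.0793) and Ccng1 (adjusted p = 0.0834) being lost among the genes named. The call of Ccng1 (-0.11 ± 0.0448) was also lost without WT DMSO replicate 1 or 2, WT GSK3326595 replicate 1 or 2, KO DMSO replicate 1 or KO GSK3326595 replicate 1, and that of Ddb2 without WT GSK3326595 replicate 2, KO DMSO replicate 1 or KO GSK3326595 replicate 1. Fdxr, which fell with GSK3326595 in both lines, had an interaction of -0.11 ± 0.121 (SE, edgeR adjusted p = 0.51) and did not pass. Btg2 did not pass for either inhibitor (0.09 ± 0.104 for MRTX1719 and -0.04 ± 0.0996 for GSK3326595, SE), nor did Bax (0.14 ± 0.0936 and -0.07 ± 0.0884). Each interaction shares its DMSO libraries with the comparisons above.

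The p53 gene and its regulators were followed beside the targets. Trp53 RNA was higher in KO cells with DMSO, at 258, 242 and 236 CPM, against 169, 169 and 164 CPM in WT cells (log2 fold change 0.55 ± 0.0260, SE, edgeR adjusted p = 8.96e-41), although most of the targets were lower there. Mdm2, at once a regulator and a p53 target, was at 63.4, 62.2 and 62.2 CPM in KO cells, against 84.0, 84.7 and 80.6 CPM in WT cells (log2 fold change -0.41 ± 0.0350, SE, edgeR adjusted p = 9.54e-22). MRTX1719 raised Mdm2 in KO cells to 74.0, 74.5 and 79.0 CPM, against 63.4, 62.2 and 62.2 CPM with DMSO (log2 fold change 0.28 ± 0.0357, SE, edgeR adjusted p = 7.93e-12), and GSK3326595 by 0.18 ± 0.0356 (log2 fold change, SE). Trp53 changed by 0.12 ± 0.0251 with MRTX1719 and 0.17 ± 0.0249 with GSK3326595 in KO cells.

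Mdm4, whose protein holds p53 inactive, fell in the KO line to 52.0, 54.2 and 52.1 CPM with MRTX1719 and 66.5, 76.1 and 73.2 CPM with GSK3326595, against 115, 115 and 112 CPM with DMSO. The groups did not overlap, with log2 fold changes of -1.11 ± 0.0350 (SE, edgeR adjusted p = 8.35e-63) and -0.66 ± 0.0328 (SE, edgeR adjusted p = 1.31e-40). In WT cells Mdm4 was at 111 and 113 CPM with MRTX1719 and 97.2, 93.9 and 95.2 CPM with GSK3326595, against 107, 105 and 107 CPM with DMSO (log2 fold changes 0.08 ± 0.0343, which did not pass, and -0.15 ± 0.0314, SE). The interaction was -1.19 ± 0.0491 (SE, edgeR adjusted p = 5.24e-49) for MRTX1719 and -0.51 ± 0.0455 (SE, edgeR adjusted p = 1.75e-19) for GSK3326595, in log2 units. Mdm4 is known as a gene whose splicing depends on PRMT5, and gene-level counts do not separate its isoforms. Of 16 regulators tested, 9 were higher and 5 lower in KO cells with MRTX1719, against 37.0% and 33.6% of all genes. Trp63, the p53 relative, fell to 1.05, 0.773 and 0.771 CPM with MRTX1719, against 4.93, 4.49 and 4.72 CPM with DMSO (log2 fold change -2.44 ± 0.191, SE), and the checkpoint kinase gene Chek1 rose by 0.62 ± 0.0450. The kinase gene Hipk2 rose by 0.60 ± 0.0709.

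Other published p53 targets, a list of 26 that includes Mdm2, were counted in the same way. Between the lines under DMSO 12 of 22 tested were lower in KO cells and 7 higher, against 37.0% and 36.2% of all genes, such as the long noncoding RNA gene Trp53cor1 (log2 fold change -2.35 ± 0.284, SE), the epoxide hydrolase gene Ephx1 (-1.59 ± 0.421) and, higher, the spindle gene Psrc1 (1.57 ± 0.0676). With MRTX1719 in KO cells 7 were higher and 11 lower, against 37.0% and 33.6% of all genes, among them Dglucy, the gene of D-glutamate cyclase, at -2.34 ± 0.577, Psrc1 at -0.71 ± 0.0608 and the tetraspanin gene Cd82 at -0.68 ± 0.0455 (log2 fold change, SE). With GSK3326595 in KO cells 3 were higher and 7 lower, against 27.7% and 25.1%. In WT cells 0 were higher and 2 lower with MRTX1719, against 3.62% and 3.91%, and 4 higher and 9 lower with GSK3326595, against 20.1% and 21.1%.

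Mitotic genes known to be repressed through p21 and DREAM were counted to set them beside Cdkn1a. In KO cells, where Cdkn1a rose with both inhibitors, 12 of 16 were higher and 2 lower with MRTX1719, against 37.0% and 33.6% of all genes. With GSK3326595 15 were higher and 0 lower, against 27.7% and 25.1%. The mitotic kinase gene Plk1 was at 114, 120.1 and 116 CPM with MRTX1719 and 96.8, 91.2 and 97.3 CPM with GSK3326595, against 67.4, 62.9 and 64.4 CPM with DMSO (log2 fold changes 0.85 ± 0.0348 and 0.55 ± 0.0353, SE). Aurka, another mitotic kinase gene, rose by 0.64 ± 0.0350 with MRTX1719. Between the lines under DMSO, 12 were higher in KO cells and 4 lower, against 36.2% and 37.0% of all genes, the cyclin gene Ccnb2 being higher by a log2 fold change of 1.01 ± 0.0333 (SE). In WT cells 0 were higher and 6 lower with MRTX1719, against 3.62% and 3.91%, and 8 higher and 4 lower with GSK3326595, against 20.1% and 21.1%. Immediate early genes in KO cells were lower at 9 and higher at 3 of 15 with MRTX1719, summing to 834 to 854 CPM, against 1172 to 1203 CPM with DMSO. The 5 heat shock genes tested were higher at 4 and lower at 1 there.

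T cells had a table and a fit of their own, so no difference from MC38 cells was tested. GSK3326595 raised 14 of 33 targets, lowered 4 and left 15 not passed (median log2 fold change 0.13), against 26.6% higher and 26.2% lower among all genes (median 0.00). Apoptosis genes were higher at 7 and lower at 0 of 12, repair genes higher at 3 and lower at 1 of 6, cell cycle genes higher at 4 and lower at 2 of 12, and metabolism genes higher at 0 and lower at 1 of 3. MRTX1719 raised 4, lowered 9 and left 20 not passed (median 0.01), against 18.9% higher and 18.5% lower. The 2 NK cell markers summed to 7.85 to 9.67 CPM with MRTX1719 and 7.36 to 8.59 CPM with GSK3326595, against 4.97 to 5.91 CPM with DMSO. Klrb1c was the one detected and was higher with both (log2 fold changes 0.66 ± 0.136 and 0.55 ± 0.136, SE), while Ncr1 was at 0, and their part in the results was not tested. With MRTX1719 apoptosis genes were higher at 2 and lower at 4 of 12, cell cycle genes higher at 1 and lower at 3 of 12, repair genes higher at 1 and lower at 2 of 6, and metabolism genes higher and lower at 0 of 3.

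**Figure D4:**
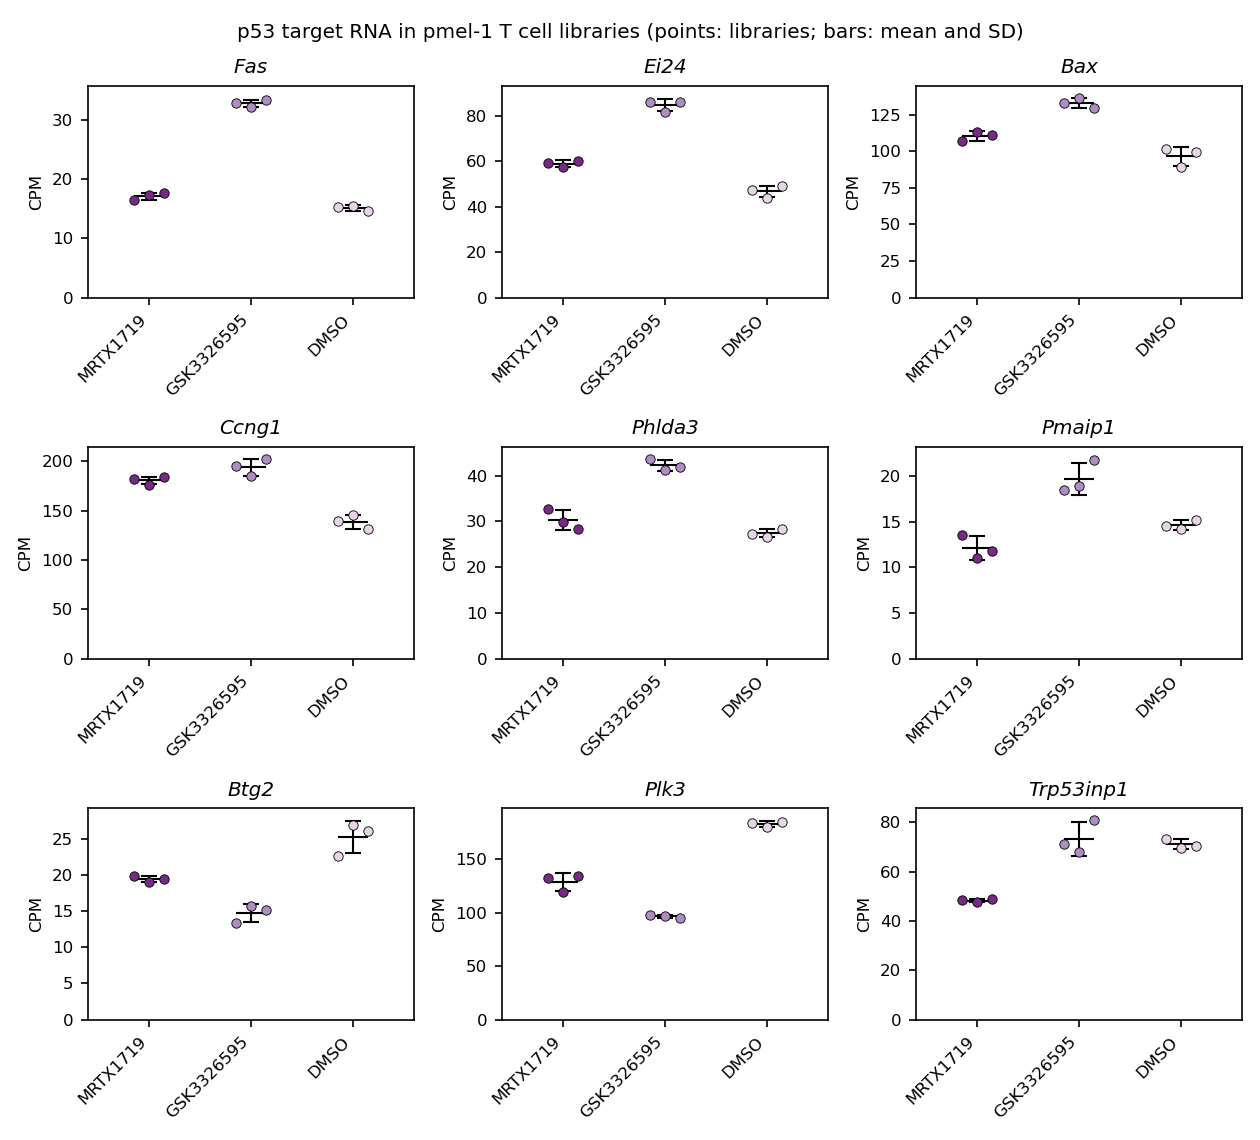
CPM of 9 p53 targets in the 9 T cell libraries with MRTX1719, GSK3326595 or DMSO. Each point is a library and bars give mean and SD (n = 3). Fas, Ei24, Bax and Phlda3 are highest with GSK3326595, Btg2 and Plk3 are lowest with it, and Trp53inp1 is low with MRTX1719.

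Fas, the receptor through which activated T cells can be killed, had 33.0, 32.2 and 33.5 CPM in T cells with GSK3326595, against 15.4, 15.5 and 14.7 CPM with DMSO. Every treated library lay above the controls (log2 fold change 1.12 ± 0.0779, SE, edgeR adjusted p = 3.69e-23), whereas with MRTX1719 Fas was at 16.5, 17.3 and 17.6 CPM and did not pass (log2 fold change 0.18 ± 0.0859, SE, edgeR adjusted p = 0.0922). Ei24, a gene of an endoplasmic reticulum protein linked to autophagy, had 86.3, 81.6 and 86.2 CPM with GSK3326595, against 47.1, 44.0 and 49.0 CPM with DMSO (log2 fold change 0.86 ± 0.0510, SE, edgeR adjusted p = 2.09e-27). With MRTX1719 it had 59.3, 57.5 and 60.2 CPM, also above all controls (log2 fold change 0.33 ± 0.0534, SE, edgeR adjusted p = 1.76e-07). Bax had 107, 113 and 111 CPM with MRTX1719 and 133, 137 and 129 CPM with GSK3326595, against 101, 89.3 and 99.1 CPM with DMSO (log2 fold changes 0.19 ± 0.0445 and 0.46 ± 0.0437, SE). Phlda3 was at 43.7, 41.2 and 42.0 CPM with GSK3326595, against 27.2, 26.6 and 28.4 CPM with DMSO (log2 fold change 0.63 ± 0.0657, SE, edgeR adjusted p = 4.01e-14), and at 32.7, 29.9 and 28.4 CPM with MRTX1719, where it did not pass (0.14 ± 0.0693). Pmaip1, barely detected in MC38 cells, was at 13.6, 11.0 and 11.8 CPM with MRTX1719 and 18.5, 18.9 and 21.8 CPM with GSK3326595, against 14.6, 14.2 and 15.2 CPM with DMSO, lower with the first and higher with the second (log2 fold changes -0.29 ± 0.0994 and 0.43 ± 0.0914, SE).

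Ccng1 rose with both inhibitors, to 182, 176 and 184 CPM with MRTX1719 and 195, 185 and 202 CPM with GSK3326595, against 139, 145 and 131 CPM with DMSO (log2 fold changes 0.38 ± 0.0404 and 0.49 ± 0.0401, SE). The groups did not overlap with the controls. Cdkn1a, in contrast, was at 311, 333 and 315 CPM with MRTX1719 and 309, 312 and 311 CPM with GSK3326595, against 322, 330.3 and 303 CPM with DMSO. Its groups overlapped and neither comparison passed (log2 fold changes 0.01 ± 0.0363, SE, edgeR adjusted p = 0.916, and -0.03 ± 0.0363, SE, edgeR adjusted p = 0.453). Btg2 fell to 19.9, 19.0 and 19.5 CPM with MRTX1719 and 13.3, 15.7 and 15.1 CPM with GSK3326595, against 22.7, 26.9 and 26.1 CPM with DMSO (log2 fold changes -0.37 ± 0.0822, SE, edgeR adjusted p = 0.000137, and -0.77 ± 0.0847, SE, edgeR adjusted p = 2.47e-13). Plk3 fell to 132, 119 and 135 CPM with MRTX1719 and 97.7, 97.3 and 94.8 CPM with GSK3326595, against 184, 179.9 and 185 CPM with DMSO (log2 fold changes -0.51 ± 0.0412, SE, edgeR adjusted p = 6.67e-19, and -0.92 ± 0.0420, SE, edgeR adjusted p = 2.36e-35). In the same libraries immediate early genes were lower at 12 and higher at 1 of 15 with MRTX1719, against 18.5% and 18.9% of all genes. With GSK3326595 they were lower at 13 and higher at 0, against 26.2% and 26.6%. They summed to 949 to 970.0 CPM with MRTX1719 and 774 to 807 CPM with GSK3326595, against 1146 to 1216 CPM with DMSO, and their part in the change of Btg2 and Plk3 was not tested.

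Among repair genes in T cells, the endonuclease gene Ercc5 had 92.9, 94.0 and 94.6 CPM with GSK3326595, against 63.1, 61.3 and 64.6 CPM with DMSO (log2 fold change 0.57 ± 0.0474, SE, edgeR adjusted p = 4.42e-19). Ddb2 rose with either inhibitor, to 72.6, 74.3 and 80.6 CPM with MRTX1719 and 86.1, 86.8 and 90.6 CPM with GSK3326595, against 67.1, 64.3 and 64.9 CPM with DMSO (log2 fold changes 0.21 ± 0.0490 and 0.42 ± 0.0479, SE). Rev3l was lower with both inhibitors (log2 fold changes -0.31 ± 0.0615 with MRTX1719 and -0.38 ± 0.0613 with GSK3326595, SE), with 38.8, 35.0 and 33.9 CPM under GSK3326595, against 45.1, 48.8 and 46.7 CPM with DMSO. Fdxr fell with GSK3326595 to 32.0, 29.6 and 25.2 CPM, against 41.7, 37.8 and 45.3 CPM with DMSO (log2 fold change -0.53 ± 0.0693, SE, edgeR adjusted p = 6.74e-10), and did not pass with MRTX1719 (-0.11 ± 0.0674). With MRTX1719 the largest fall among targets that passed was that of Trp53inp1, a gene of autophagy and cell death, at 48.4, 47.6 and 48.9 CPM, against 73.4, 69.5 and 70.4 CPM with DMSO (log2 fold change -0.56 ± 0.0540, SE, edgeR adjusted p = 4.42e-15). Tnfrsf10b also fell with MRTX1719, to 13.7, 12.4 and 12.6 CPM, against 16.2, 15.4 and 17.4 CPM (log2 fold change -0.34 ± 0.0952, SE, edgeR adjusted p = 0.00221).

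Compared directly in T cells, MRTX1719 gave lower levels than GSK3326595 at 17 of 33 targets and higher levels at 3, against 19.7% lower and 19.3% higher among all genes, with a median log2 fold change of -0.21. Apoptosis genes were lower at 9 and higher at 0 of 12. Fas was at 16.5 to 17.6 CPM with MRTX1719, against 32.2 to 33.5 CPM with GSK3326595 (log2 fold change -0.94 ± 0.0760, SE, edgeR adjusted p = 3.98e-19). Pmaip1, Trp53inp1 and Ei24 followed with log2 fold changes of -0.72 ± 0.0939, -0.61 ± 0.0532 and -0.52 ± 0.0494 (SE), and Bax with -0.26 ± 0.0430. Higher with MRTX1719 were Plk3 (0.42 ± 0.0428), Fdxr (0.42 ± 0.0698) and Btg2 (0.41 ± 0.0875). Ccng1 differed by -0.11 ± 0.0393 (SE, edgeR adjusted p = 0.0254), a call lost with DESeq2 (adjusted p = 0.0646), without a filter on low counts, and without GSK3326595 replicate 1 or 3 or MRTX1719 replicate 1 or 2. Cdkn1a did not pass (0.04 ± 0.0362).

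Trp53 in T cells was at 85.7, 76.5 and 79.6 CPM with MRTX1719 and 109, 109 and 108 CPM with GSK3326595, against 80.3, 80.6 and 92.4 CPM with DMSO. It rose with GSK3326595 (log2 fold change 0.37 ± 0.0467, SE, edgeR adjusted p = 1.21e-10) and did not pass with MRTX1719 (-0.07 ± 0.0484). Mdm4 fell with both, to 202, 192 and 202 CPM with MRTX1719 and 187, 185 and 190.1 CPM with GSK3326595, against 243, 247 and 231 CPM with DMSO (log2 fold changes -0.27 ± 0.0376, SE, edgeR adjusted p = 2.9e-09, and -0.36 ± 0.0376, SE, edgeR adjusted p = 5.06e-14). Mdm2 fell with both (log2 fold changes -0.16 ± 0.0389 with MRTX1719 and -0.13 ± 0.0387 with GSK3326595, SE). Of 16 regulators 5 were higher and 6 lower with GSK3326595, against 26.6% and 26.2% of all genes, and Cdkn2a, the gene of the MDM2 inhibitor ARF and of p16, was at 44.5, 40.5 and 38.8 CPM, against 82.2, 87.1 and 83.8 CPM with DMSO (log2 fold change -1.03 ± 0.0516, SE). With MRTX1719 2 were higher and 6 lower, against 18.9% and 18.5%. Of 24 other p53 targets tested in T cells, 5 were higher and 9 lower with GSK3326595, led by the sestrin gene Sesn2 (-1.35 ± 0.0389), and 1 was higher and 10 lower with MRTX1719. With the same shares of all genes as background, the mitotic genes repressed through p21 and DREAM were higher at 8 and lower at 0 of 16 with MRTX1719, and higher at 9 and lower at 1 with GSK3326595.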

How the data were processed

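RNA of 17 MC38/gp100 and 9 pmel-1 T cell libraries was sequenced as poly(A) RNA with a directional kit on a NovaSeq X plus, per the labels' protocols. The tools named in the submitters' processing notes are DESeq 1.18.0, Bowtie2 2.1.0 and TopHat2 2.0.10, and the genome build is mm39 (GRCm39). Which program counted the reads, with which annotation and strand setting, is not given in the sources used here. The authors deposited whole-number raw counts per gene, and beside them tables of normalized signal, counts divided by a size factor per library. The second kind served only to tie gene names to 15629 (MC38) and 15287 (T cell) identifiers: scaled back, 100% of its values were whole within 1e-06 and matched the raw counts. Identifiers outside those tables were named from a reference table of gene identifiers, which left 4144 (MC38) and 4140 (T cell) unnamed.

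The 35 members and all other lists were chosen with earlier results of these data known. Counts of each cell kind were fitted separately with edgeR 4.0.16 in R 4.3.3 (TMM scaling, filterByExpr, robust quasi-likelihood, all groups of a table in 1 fit, no covariate), and p was adjusted over all genes. Common biological coefficients of variation were 0.0198 in MC38 and 0.0372 in T cells, so small changes passed, and where libraries of a group are technical repeats the p-values measure no more than technical spread. SE is the log2 fold change divided by the square root of F. No pair of replicate libraries agreed within sampling noise (chi-square per gene at least 1.41). Replicate numbers did not pair libraries (correlations from -0.157 to 0.0766), so the fit has no block. Per-library values are given mainly for Cdkn1a, Btg2, Bax and Ccng1 and for the 4 members with the largest called change in each direction. Some other members have them too, such as Plk3 and Eda2r between the lines under DMSO, where Pmaip1 and Gdf15 are given as summed counts. Members with the largest changes were picked for their change, so a lack of overlap between their libraries is no separate evidence. Other lists are given as counts with at most 4 called genes named, and Trp53, Mdm2, Mdm4 and Mtap are always given. Fits were also run on simulated counts that gave every gene the same spread, unlike these data, so that run does not give the error rate here. Alternatives were DESeq2 1.42.0, its size factors, no low-count filter, a replicate block, only the compared groups, and each replicate left out.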

Additional observations from a re-analysis of the deposited data

Results flagged for a closer look

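The effect of an inhibitor differed between the KO and the WT line at the following p53 targets, by the interaction test of edgeR (KO effect minus WT effect, log2 units, adjusted p under 0.05). Listed are the 4 largest called differences in each direction, and Cdkn1a, Btg2, Bax and Ccng1 where called. Further targets differed too, such as Plk3 with MRTX1719. For MRTX1719 the difference was 3.72 for Gdf15, 1.81 for Cdkn1a, 1.26 for Eda2r and 0.73 for Apaf1, and -0.21 for Ccng1, -0.41 for Aen, -0.73 for Rrm2b, -0.78 for Fdxr and -0.97 for Ddb2. For GSK3326595 it was 1.17 for Cdkn1a, 0.50 for Apaf1, 0.32 for Plk2 and 0.25 for Zmat3, and -0.11 for Ccng1, -0.23 for Gadd45a, -0.29 for Ddb2, -0.32 for Rrm2b and -0.58 for Aen. The Gdf15 value rests on 93 counts with MRTX1719 and 9 with DMSO in KO cells. In WT cells it rests on 37 counts over 2 libraries with MRTX1719 and 69 counts over 3 libraries with DMSO. Scaled for depth, the WT ratio was 0.741 with a 95% counting interval of 0.483 to 1.12, which includes no change. Groups of 3 or 2 libraries were too small for a test of single outlying libraries. By chi-square per gene, KO GSK3326595 replicate 1 differed from replicates 2 and 3 by 2.98 and 2.89, against 1.67 between the latter. KO DMSO replicate 1 differed from replicates 2 and 3 by 2.02 and 1.99, against 1.41 between the latter.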

How the results depend on the processing

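With a replicate block, 14 p53 targets were higher and 13 lower in KO cells with MRTX1719, as without it, and the interaction above 0 for MRTX1719 held at 12 rather than 13. The block changed no call among the 124 named values. The numbers do not pair libraries by the check of their deviations. Of these 124 values, DESeq2 left 7 no longer past the threshold, no filter on low counts 2, and its size factors 0. No value that passed in the main fit or in the alternative changed sign. Signs of values that passed in neither were not compared. With DESeq2, WT cells with MRTX1719 had 1 higher target and 733 genes called, against 1117 in the main result, and 3 targets had an interaction below 0 for GSK3326595. Leaving out each replicate gave 433 to 912 genes called in WT cells with MRTX1719, with 0 to 2 targets higher and 2 to 4 lower, and 6 to 11 targets higher in KO cells with GSK3326595. The lowest gene count came without MRTX1719 replicate 1, and without replicate 3 it was 510. These WT contrasts rest on 2 treated libraries, and a lone library is assumed to vary like the other groups. Depth limits Pmaip1, Gdf15, Perp and Ptp4a3 in MC38 cells, and Eda2r (40 counts in all) and Gdf15 (7 counts) in T cells.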

Other observations

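Members under the low-count filter were near the limit of detection. Perp, a desmosomal p53 target, had 5 counts over all MC38 libraries, and the phosphatase gene Ptp4a3 had 83. Ptp4a3 was tested in T cells, at 315, 321 and 323 CPM with MRTX1719 and 389.8, 375 and 359 CPM with GSK3326595, against 289, 294 and 321 CPM with DMSO (log2 fold changes 0.09 ± 0.0372 and 0.31 ± 0.0369, SE). With MRTX1719 it did not pass, and its libraries overlapped those with DMSO. The keratin gene Krt8, the main epithelial marker detected in MC38 cells, was at 57.5, 58.3 and 59.3 CPM in KO cells with MRTX1719 and 61.2, 58.3 and 60.8 CPM with GSK3326595, against 14.2, 13.96 and 15.1 CPM with DMSO.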
